A study of Mus musculus with 24 samples.

Results

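Arginine metabolism was followed through 9 genes, Ass1, Asl, Arg1, Arg2, Nos2, Odc1, Oat, Slc7a1 and Slc7a2, out of 45547 gene names on the arrays. They were found by matching the transcript accession of each probe to a RefSeq gene symbol, which gave 10 probes, a pair of them for Odc1 and a single probe for each of the others. Ass1 was selected on its measured signal, for the difference between the myeloid lines J365 and M0, and the other 8 genes were added for their place in the same pathway. Values of these genes in J365 against M0 are therefore given as a description, with no test.

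Gene expression was measured in 24 samples of total RNA from 7 cultured mouse cell lines, with 1 sample per single-colour Agilent array. Of the 5 melanoma lines, all named B16F1-GFP after a mouse melanoma carrying green fluorescent protein, M (3 arrays) is the parental line in the study, D (4) was recovered after long dormancy in mice vaccinated with irradiated cells, and DB#1 (4), DB#2 (3) and DB#3 (3) came from a brain site in a subsequent generation. The labels give M0 (4 arrays) and J365 (3) as myeloid cells, with no statement of how either was derived. Every M0 and J365 title also carries the tag p20, which no melanoma title does. No treatment separated the samples at the time of RNA extraction. The parental, recovered and both myeloid states are each represented by 1 line and the brain-site state by 3, so in each comparison a difference between lines and a difference between the states they came from cannot be told apart. The labels do not say whether the arrays of a line came from separate cultures, and p-values then measure the spread between these arrays, which may be technical.

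Arginine sits at a branch point of nitrogen metabolism. Ass1 (argininosuccinate synthase) joins citrulline and aspartate, and Asl (argininosuccinate lyase) splits the product into arginine and fumarate, so that a cell with both enzymes can make its own arginine. The arginases Arg1 and Arg2 turn arginine into ornithine, which Odc1 (ornithine decarboxylase) directs to polyamines and Oat (ornithine aminotransferase) to glutamate and proline, whereas Nos2 (inducible nitric oxide synthase) uses arginine for nitric oxide, and Slc7a1 and Slc7a2 carry arginine across the plasma membrane. Loss of Ass1 expression is known from several tumour types, whose cells then depend on arginine from outside.

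The sequence before the Ass1 start is shown because Ass1 had by far the widest range of levels among the readable members. It covers the 250 bases upstream of the RefSeq transcript start in assembly GRCm38.p6, chr2:31470020-31470269 on the plus strand, with an exact match to CACGTG and an exact match to GGGCGG in capitals.

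Ass1: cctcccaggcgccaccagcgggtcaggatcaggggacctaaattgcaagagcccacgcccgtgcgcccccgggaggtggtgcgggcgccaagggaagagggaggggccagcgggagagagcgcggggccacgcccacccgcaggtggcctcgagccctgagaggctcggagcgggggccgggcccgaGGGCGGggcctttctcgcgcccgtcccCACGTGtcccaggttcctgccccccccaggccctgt

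This stretch had a GC content of 75.6% and held 23 CpG dinucleotides, against a median of 6 over 32851 promoters of the same length, 13.3% of which held at least as many. CACGTG, the E-box core of the MYC and MAX family, lay 36 bases before the start and was found on either strand in 6.02% of the promoters. GGGCGG, the core of a GC box, lay 63 bases before the start and was found in 32.7% of them. These matches describe the letters and were not tested for binding.

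On every array the signal of a gene is given as its normalized log2 signal, the log2 intensity less the 75th percentile of that array, so that 0 marks that percentile. The share of probes well above background was 43.6% to 53.8% on 23 arrays and 89.9% on D replicate 3. Melanoma markers (7 genes, such as Tyr and Mlana) averaged 6.83 to 7.74 where the label said melanoma and -4.18 to -3.78 where it said myeloid. The opposite held for 8 blood cell markers, at -4.89 to -2.90 in melanoma lines and 2.00 to 2.77 in myeloid lines, and the types did not overlap on either list. On D replicate 3 every list of other cell types had its highest mean among the melanoma arrays, at -2.90 for blood, -2.36 for macrophage, -3.03 for fibroblast, -2.71 for hepatocyte and -3.91 for endothelial markers, against at most -3.68, -3.26, -3.72, -5.41 and -5.25 on the others. The part of this array in the results below was not tested beyond leaving the array out.

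Ass1 was well above background on all 24 arrays. In M0 its signal was -2.18, -1.62, -1.42 and -1.53 on replicates 1 to 4, and in J365 it was 3.52, 3.66 and 3.77 on replicates 1, 3 and 4. The mean was 3.65 ± 0.12 (SD, n = 3) in J365 and -1.69 ± 0.34 (SD, n = 4) in M0, a difference of 5.34 ± 0.42 (SE) on the log2 scale or 40.5-fold. Every J365 array lay far above every M0 array, and on the 3 slides taken alone the difference was 5.84, 5.25 and 5.15.

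In the melanoma lines Ass1 stood at the level of J365 rather than that of M0. M gave 4.04, 3.59 and 4.02 on its 3 arrays, with a mean of 3.89 ± 0.25 (SD, n = 3). D gave 5.29, 3.28, 2.60 and 3.21, the widest spread of any line for this gene, with a mean of 3.59 ± 1.17 (SD, n = 4). Before scaling, D replicate 1 (5.29) had an intensity of 13520, far above 3533, 3475 and 3715 on replicates 2, 3 and 4. Replicate 1 therefore stood apart from the other D arrays without scaling as well. The 75th percentile of D replicate 3 was 573.8, beside 344.7, 363.8 and 402.4 on replicates 1, 2 and 4. The part of scaling in the remaining spread was not tested. The brain-site lines averaged 3.17 ± 0.29 (SD, n = 4) in DB#1, 4.30 ± 0.62 (SD, n = 3) in DB#2 and 4.04 ± 0.21 (SD, n = 3) in DB#3. From high to low the order of the means was DB#2, DB#3, M, J365, D, DB#1 and M0, and the arrays of each line overlapped those of the next one down, except that all DB#1 arrays (2.83 to 3.43) lay above all M0 arrays. M exceeded M0 by 5.58 ± 0.42 (SE), or 47.7-fold, and no test is given for this difference because it uses the M0 arrays on which Ass1 was chosen.

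**Figure D1:**
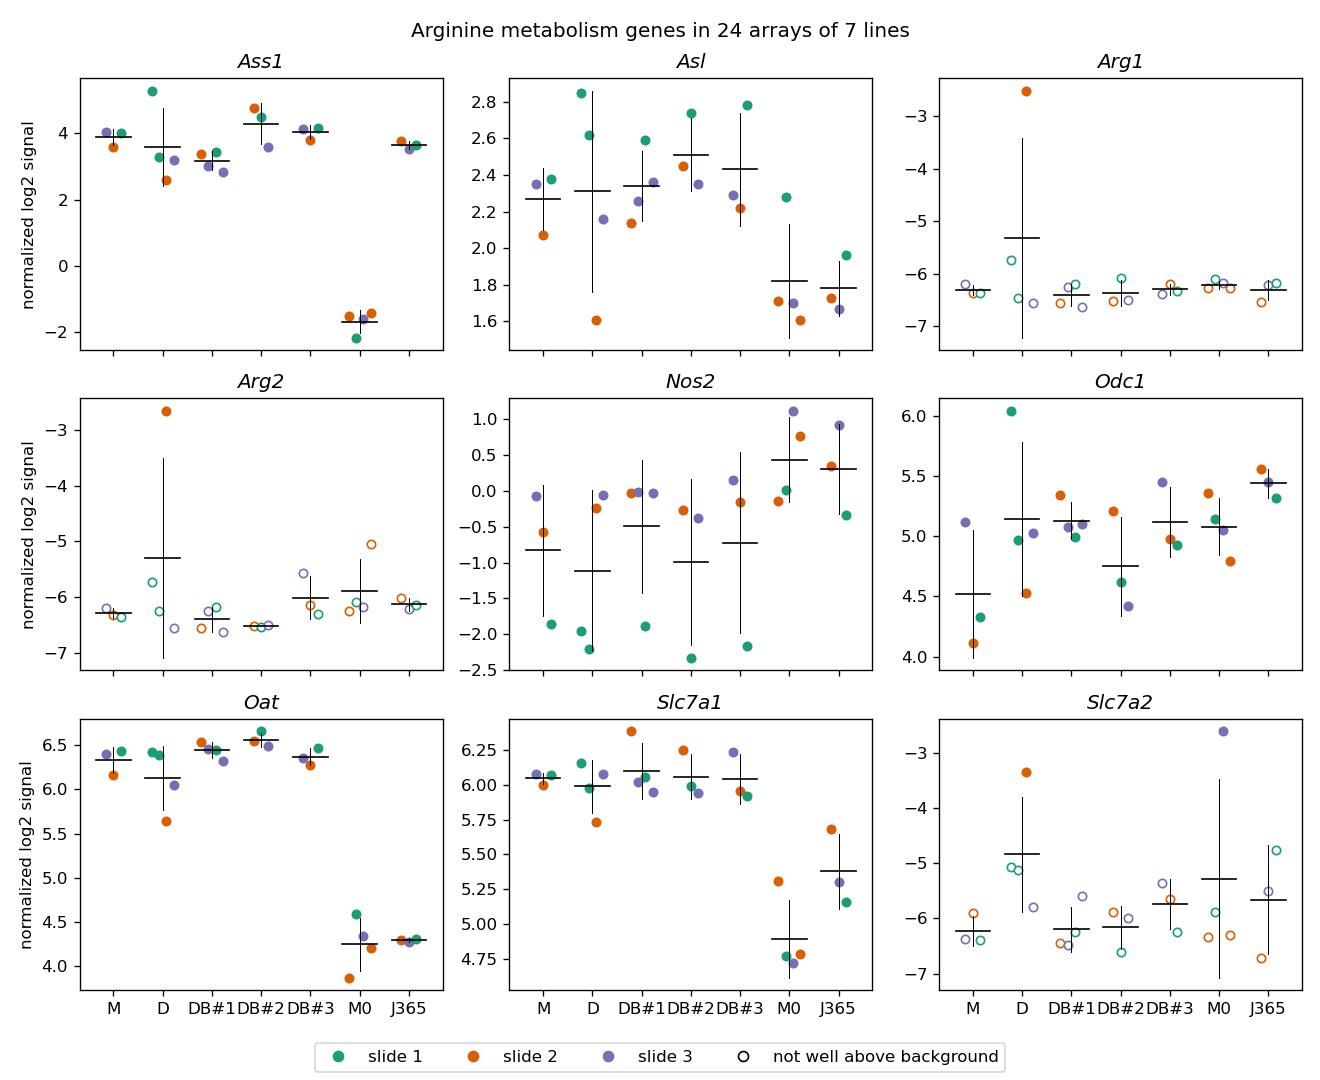
Normalized log2 signal (vertical axis, a scale of its own for each gene) of the 9 genes on 24 arrays of 7 lines, with 1 point per array coloured by slide, a horizontal bar at the line mean and a vertical bar of ± 1 SD. Open points are not well above background. Ass1 is low in the 4 M0 arrays alone, Oat and Slc7a1 separate melanoma from myeloid arrays, and Nos2 in the melanoma lines is lowest on slide 1.

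Asl, the next enzyme, was read on every array, and its range was narrow. M0 gave 2.28, 1.70, 1.61 and 1.71 on replicates 1 to 4 and J365 gave 1.67, 1.96 and 1.73 on replicates 1, 3 and 4. The J365 arrays lay within the range of the M0 arrays, with a difference of -0.04 ± 0.24 (SE). The melanoma lines averaged 2.27 (M) to 2.51 (DB#2), and arrays of neighbouring lines overlapped throughout the order.

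The arginases and Slc7a2 were at the edge of what the arrays could read. Arg1 and Arg2 were not well above background on 23 of the 24 arrays, with line means between -6.51 and -5.30. The exception for both was D replicate 3, at -2.52 for Arg1 and -2.66 for Arg2, the array on which most probes passed the background mark. Slc7a2, a cationic amino acid transporter, was above background on that same array (-3.35) and on M0 replicate 2 (-2.60), and on no other. These 3 genes passed the filter in no comparison, so 6 of the 9 genes could be tested or described by a difference.

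Nos2 was well above background on every array, but its values in the melanoma lines went with the slide. The 6 melanoma arrays on slide 1 lay between -2.33 and -1.85, against -0.57 to -0.03 for the 5 on slide 2 and -0.37 to 0.16 for the 6 on slide 3. The myeloid arrays spanned -0.33 to 0.01 on slide 1, -0.14 to 0.77 on slide 2 and 0.92 to 1.12 on slide 3. M0 averaged 0.44 ± 0.60 (SD, n = 4), J365 0.31 ± 0.63 (SD, n = 3) and M -0.83 ± 0.92 (SD, n = 3). Neighbouring lines overlapped through the whole order, and the source of the slide difference was not tested.

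Odc1, the first enzyme of polyamine synthesis, was read strongly in every line. M gave 5.12, 4.11 and 4.33, the lowest mean of all lines at 4.52 ± 0.53 (SD, n = 3). D gave 6.04, 4.97, 4.53 and 5.03, and J365 had the highest mean, 5.44 ± 0.12 (SD, n = 3), beside 5.08 ± 0.24 (SD, n = 4) in M0. J365 and M0 differed by 0.36 ± 0.29 (SE), and their arrays overlapped. The other Odc1 probe gave 0.19 for this difference.

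Oat and Slc7a1 divided the arrays by cell type. Oat was 6.40, 6.16 and 6.43 in M, and over all 17 melanoma arrays it lay between 5.64 and 6.66. In M0 it was 4.59, 4.34, 4.21 and 3.87 on replicates 1 to 4, and in J365 4.28, 4.31 and 4.30 on replicates 1, 3 and 4. No melanoma array overlapped a myeloid array, whereas J365 and M0 differed by 0.05 ± 0.17 (SE). The share of all genes that separate every melanoma from every myeloid array was not computed. Between M and M0 alone 57.8% of all genes did not overlap. Slc7a1, the main arginine carrier of most proliferating cells, was 6.08, 6.0 and 6.07 in M, and 5.73 to 6.39 over the melanoma arrays. It was 4.77, 4.72, 4.78 and 5.31 in M0 on replicates 1 to 4 and 5.30, 5.16 and 5.68 in J365 on replicates 1, 3 and 4. The lowest melanoma array for Slc7a1 (5.73, D replicate 3) lay only just above the highest myeloid array (5.68, J365 replicate 4). J365 averaged 0.48 ± 0.17 (SE) above M0, and the lowest J365 array lay below the highest M0 array.

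Of the 6 readable genes, Ass1 was the 1 gene whose J365 and M0 arrays did not overlap, which is the contrast it was chosen for. Over all 20660 genes tested between these lines 8.49% did not overlap and 1.47% passed an adjusted p under 0.05 (limma, Benjamini-Hochberg over all genes tested), the threshold at which a gene is called here. Nothing is read from the count of members.

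The melanoma comparisons asked whether the recovered lines differed from the parental line in these genes. None of the 6 genes was called in D, DB#1, DB#2 or DB#3 against M with limma (0 of 6 in each), while 2.96%, 3.69%, 3.44% and 2.76% of all genes tested were called in these comparisons. At an unadjusted p under 0.05 the counts were 1, 1, 0 and 0, and the gene was Odc1 both times. Beside these shares a count of 0 does not set the 6 genes apart. All 4 comparisons share the M arrays, and their values are not independent of each other.

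Ass1 was -0.29 ± 0.42 (SE, adjusted p = 0.923, limma) in D relative to M. Within slides the difference was 0.26, -0.99 and -0.83. It was -0.86 (adjusted p = 0.0918) without D replicate 1, the array at 5.29, and 0.04 without D replicate 3, the array at 2.60. In DB#1 it was -0.72 ± 0.42 (SE, adjusted p = 0.553, limma), with all 4 arrays below the 3 arrays of M. It was 0.41 ± 0.45 (SE, adjusted p = 0.898) in DB#2 and 0.15 ± 0.45 (SE, adjusted p = 1) in DB#3 by the same test. In DB#2 the within-slide values were 0.49, 1.19 and -0.44, and the difference was 0.17 without DB#2 replicate 1 and 0.76 without DB#2 replicate 3. None of these differences was called. The SE comes from a spread pooled over all 7 lines, D with its SD of 1.17 included, whereas the SD was 0.29 in DB#1 and 0.25 in M, and within slides DB#1 differed from M by -0.59, -0.22 and -1.11.

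The log2 difference of Odc1 from M was 0.63 ± 0.29 (SE, adjusted p = 0.384) in D, 0.61 ± 0.29 (adjusted p = 0.378) in DB#1, 0.23 ± 0.31 (adjusted p = 0.94) in DB#2 and 0.60 ± 0.31 (adjusted p = 0.562) in DB#3 (limma). The 4 values are taken against the same 3 M arrays, of which replicate 1 (5.12) lay within the range of each of those lines. The other Odc1 probe gave 0.83, 0.58, 0.20 and 0.71. On slide 3 alone the Odc1 difference was -0.09, -0.03, -0.70 and 0.33, and on the other slides it ran from 0.29 to 1.24. Leaving out 1 array moved it to between 0.33 (without D replicate 1) and 0.93 (without M replicate 1) in D, 0.40 (without M replicate 2) and 0.91 (without M replicate 1) in DB#1, 0.00 (without DB#2 replicate 1) and 0.53 (without M replicate 1) in DB#2, and 0.40 and 0.90 (without M replicates 2 and 1) in DB#3. For Asl the difference lay between 0.04 and 0.25, for Oat between -0.20 and 0.23, for Slc7a1 between -0.06 and 0.05 and for Nos2 between -0.28 and 0.34. Of the 6 genes, 0, 1, 1 and 0 had arrays that did not overlap those of M in D, DB#1, DB#2 and DB#3, namely Ass1 in DB#1 and Oat in DB#2, beside 8.43%, 19.9%, 21.5% and 21.0% of all genes.

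**Figure D2:**
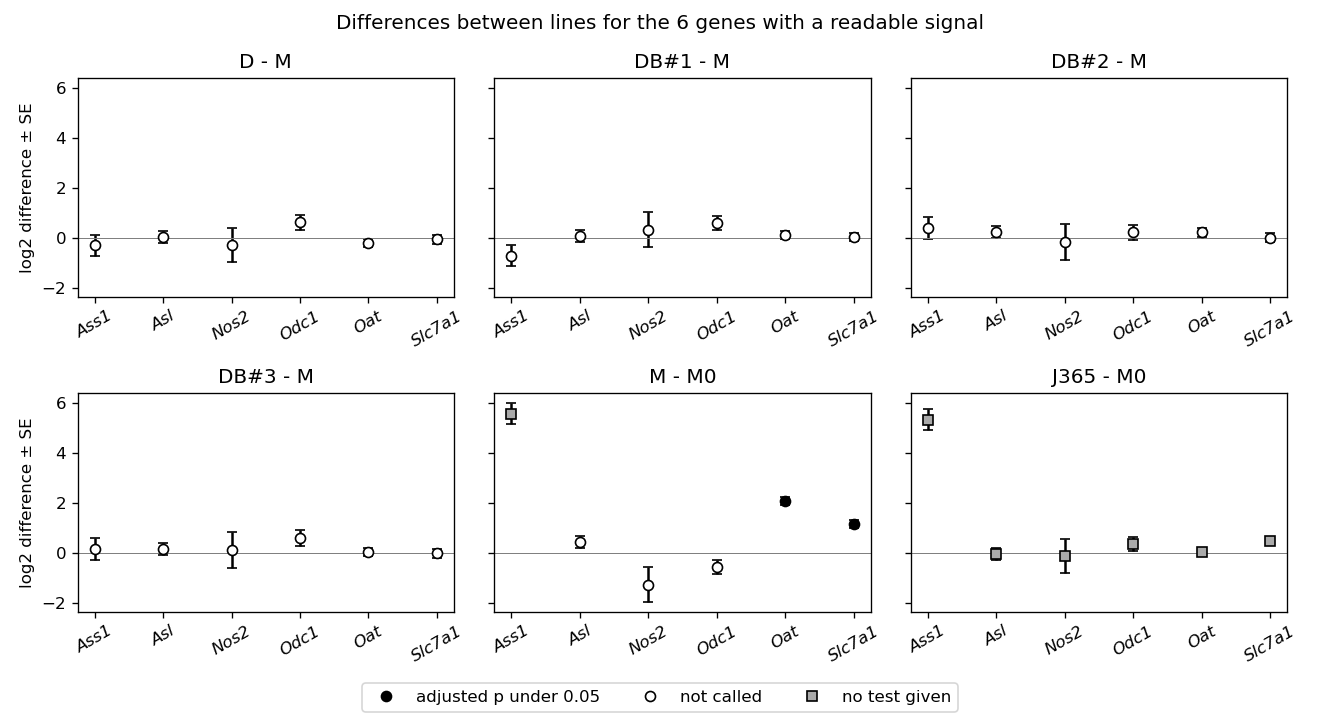
Log2 difference between lines (vertical axis, same scale in all panels) with ± 1 SE from limma for the 6 genes read well above background, in 6 comparisons. Filled circles have an adjusted p under 0.05, open circles do not, and grey squares are shown without a test. Ass1 stands at 5.58 in M - M0 and 5.34 in J365 - M0, and all other values lie between -1.27 and 2.08.

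M against M0 compared the parental melanoma line with a myeloid line. Oat was higher in M by 2.08 ± 0.17 (SE, adjusted p = 1.4e-09, limma), or 4.23-fold, and Slc7a1 by 1.16 ± 0.17 (SE, adjusted p = 5.22e-06), or 2.23-fold. Within slides the Oat difference was 1.85, 2.12 and 2.06 and the Slc7a1 difference 1.30, 0.96 and 1.36. These were 2 of 5 members tested, Ass1 left out, beside 58.5% of all genes, 27.7% higher and 30.8% lower in M, a share that does not set the members apart. The same 2 genes were those without overlap between M and M0, beside 57.8% of all genes.

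Asl (0.44 ± 0.24, adjusted p = 0.121), Odc1 (-0.56 ± 0.29, adjusted p = 0.102) and Nos2 (-1.27 ± 0.69, adjusted p = 0.125) were not called between M and M0 with limma, and each was called in some other setting. With slide as a block 66.9% of all genes and 4 of the 5 members were called, Nos2 at -1.18 (adjusted p = 0.00128) and Asl at 0.38 (adjusted p = 0.0231) in addition. Without scaling between arrays Asl was also called, at 0.58 (adjusted p = 0.00525), and with quantile normalization Odc1 was, at -0.72 (adjusted p = 0.0107). Leaving out M0 replicate 1 gave 0.59 for Asl (adjusted p = 0.0432), and leaving out M replicate 1 gave -0.86 for Odc1 (adjusted p = 0.0219) and leaving out D replicate 1 gave -0.56 (adjusted p = 0.0419). The other Odc1 probe gave -0.08 between M and M0, so the probes of this gene did not give the same size of difference.

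The wider pathway was described with 80 other genes, of which 78 were measured. They cover the urea cycle, polyamines, proline and glutamate, creatine, nitric oxide, arginine transport and sensing, and arginine in tRNA and in proteins. In D against M, 65 could be tested, 1 was higher and 2 were lower (limma), beside 1.38% and 1.58% of all genes, with a median log2 difference of 0.04 against -0.01 over all genes. DB#1 had 1 gene higher and 0 lower of 65, beside 2.05% and 1.65% of all genes. DB#2 had 3 higher and 2 lower of 66, beside 2.15% and 1.28%. DB#3 had 1 higher and 0 lower of 65, beside 1.61% and 1.15%. The medians were 0.10, 0.16 and 0.18 in DB#1, DB#2 and DB#3, against 0.04, 0.02 and 0.03 over all genes.

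Slc7a4, a relative of the cationic amino acid transporters, was called in all 4 comparisons, and the calls in D and DB#2 depended on the setting. Its signal was -1.85, -2.05 and -1.91 in M and -0.78, -0.83, -1.14 and -0.88 in D, and it lay between -0.90 and -0.50 in DB#1, between -1.42 and -0.85 in DB#2 and between -0.87 and -0.30 in DB#3. Every array of the recovered lines lay above every M array. The log2 difference was 1.03 ± 0.16 (SE, adjusted p = 0.000503) in D, 1.23 ± 0.16 (adjusted p = 3.9e-05) in DB#1, 0.79 ± 0.17 (adjusted p = 0.0105) in DB#2 and 1.35 ± 0.17 (adjusted p = 3.46e-05) in DB#3 (limma). These values share the M arrays, and within the 3 slides they ran from 0.63 to 1.61. The call in DB#2 was lost without M replicate 2 (adjusted p = 0.0666) and without DB#2 replicate 2 (adjusted p = 0.0984). With quantile normalization Slc7a4 was not called in D (0.84, adjusted p = 0.0622) or DB#2 (adjusted p = 0.115), and in DB#2 it was not called with normexp (0.52, adjusted p = 0.166), with no filter on dim probes (adjusted p = 0.0527) or with the arrays of M and DB#2 alone (adjusted p = 0.101). In M0 and J365 the gene was not well above background on any array, and M exceeded M0 at least 4.44-fold, a bound that takes the dimmest signal above background for each M0 array.

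In D against M the genes that fell were Padi2 and Glul. Padi2, a peptidylarginine deiminase that converts arginine in proteins to citrulline, was 2.48, 2.36 and 2.51 in M and 1.73, 1.39, 1.46 and 1.52 in D, a difference of -0.92 ± 0.15 (SE, adjusted p = 0.000931, limma). Glul, which makes glutamine from glutamate, differed by -0.80 ± 0.16 (SE, adjusted p = 0.00438), with -0.80 to -0.37 over its 3 probes. With the mean over its probes Glul was not called (-0.56, adjusted p = 0.141), nor was it without scaling between arrays (-0.62, adjusted p = 0.113). With the arrays of M and D alone in the fit none of Slc7a4 (adjusted p = 0.0592), Padi2 (adjusted p = 0.087) and Glul (adjusted p = 0.268) was called. Padi2 was not called without scaling either (-0.75, adjusted p = 0.0665).

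In DB#2 against M 2 of the 9 genes tested in the nitric oxide list fell, beside 1.28% of all genes, while 5 of the 9 were above 0 and their median was 0.11. The genes that fell were Ddah1 and Ddah2. Ddah1 breaks down asymmetric dimethylarginine, a natural inhibitor of nitric oxide synthases, and Ddah2 is a related protein. Ddah2 was 0.89 to 1.00 in M and -1.92 to -1.42 in DB#2, a difference of -2.68 ± 0.24 (SE, adjusted p = 3.09e-07, limma) or 6.41-fold. Ddah1 was -0.50 to 0.08 in M and -1.75 to -1.36 in DB#2, a difference of -1.29 ± 0.19 (SE, adjusted p = 0.000148). Neither gene was called in D, DB#1 or DB#3 against M, where Ddah2 differed by 0.11, 0.55 and 0.48 and Ddah1 by 0.03, -0.05 and -0.06. Whether DB#2 differs from those lines was not tested.

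Got1 and Padi2 rose in DB#2 as well. Got1 is a reversible cytosolic enzyme that makes or uses aspartate, the second substrate of Ass1. Got1 was 4.82 to 5.28 in M and 6.02 to 6.25 in DB#2, a difference of 1.09 ± 0.25 (SE, adjusted p = 0.0121, limma). Its call was lost without M replicate 2 (adjusted p = 0.0799), M replicate 3 (adjusted p = 0.0578) or DB#2 replicate 1 (adjusted p = 0.0692). Padi2 was 3.13, 3.25 and 3.19 in DB#2, a difference of 0.74 ± 0.17 (SE, adjusted p = 0.0115, limma), with the opposite sign to its difference in D. The other brain-site lines went with D, at -0.44 in DB#1 and -0.48 in DB#3. Their arrays (1.91 to 2.22 and 1.91 to 2.00) lay below all M arrays, and Padi2 was called in neither. Only 1 of its 2 probes was detected in these comparisons. The Padi2 call in DB#2 was lost without M replicate 2 (adjusted p = 0.0674) or DB#2 replicate 2 (adjusted p = 0.0595).

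**Figure D3:**
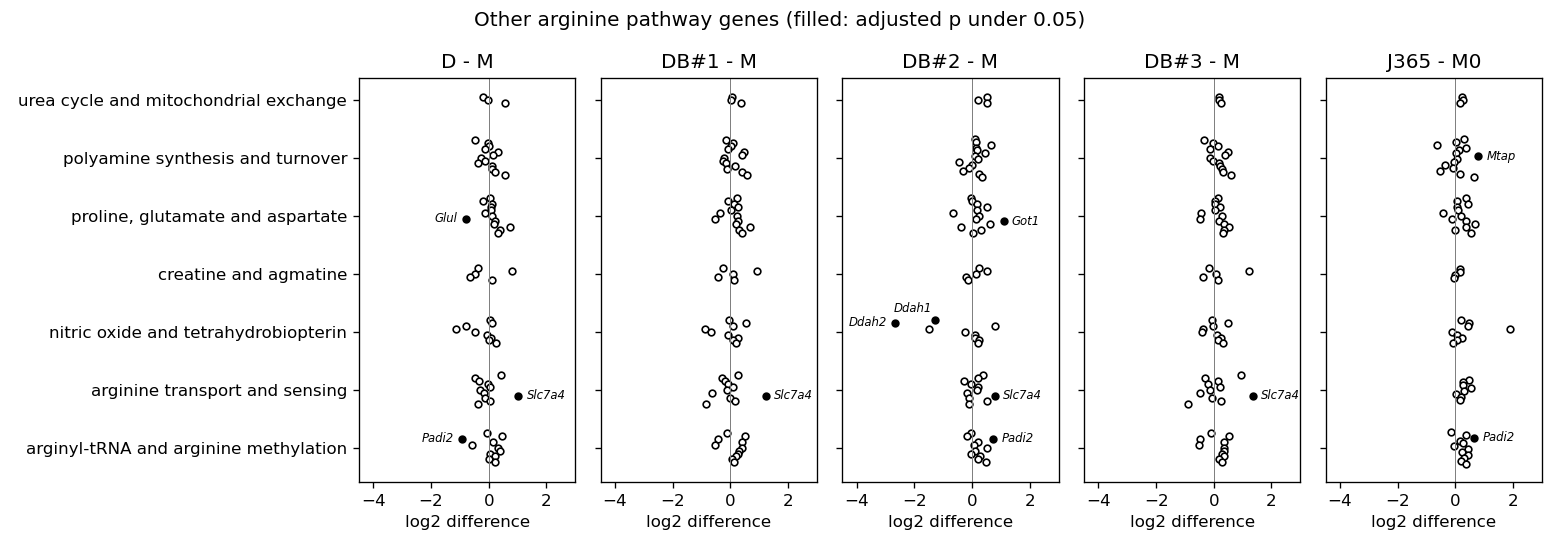
Log2 difference (horizontal axis) of each tested gene of 7 arginine pathway lists (rows) in 5 comparisons (panels), with 1 point per gene. Filled points, which are named, have an adjusted p under 0.05. Slc7a4 is filled on the right in the 4 melanoma comparisons, and Ddah2 in DB#2 - M is the farthest point on the left at -2.68.

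Between J365 and M0, 2 of the 63 pathway genes tested were higher and 0 lower, beside 0.721% and 0.745% of all genes, with a median of 0.18 against 0.02 over all genes. Mtap, which salvages methylthioadenosine from polyamine synthesis, was 4.20 to 4.57 in M0 and 4.99 to 5.47 in J365, a difference of 0.79 ± 0.15 (SE, adjusted p = 0.00641, limma). Its call was lost without J365 replicate 4 (adjusted p = 0.0744) and with the arrays of J365 and M0 alone (adjusted p = 0.164). Padi2 was 2.19 to 3.00 in M0 and 3.31 to 3.45 in J365, a difference of 0.64 ± 0.15 (SE, adjusted p = 0.039), and its call was lost in 17 of the 24 fits that left out 1 array, those without any 1 of the 3 J365 arrays or without M0 replicate 3 among them, and otherwise melanoma arrays (adjusted p from 0.0214 to 0.185 over the 24). None of the 3 urea cycle and mitochondrial exchange genes tested was called.

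M against M0 had 27 of 69 pathway genes higher and 16 lower, beside 27.7% and 30.8% of all genes. Slc25a13 (citrin), which exports aspartate from mitochondria, was 2.10 ± 0.16 (SE) higher in M. Nos3, the endothelial nitric oxide synthase, was 2.96 ± 0.31 (SE) higher, and Slc25a29, a mitochondrial carrier of basic amino acids, 3.00 ± 0.21 (SE) higher. Gls2, a glutaminase, had the largest fall among the pathway genes read in both lines, with a difference of -4.42 ± 0.25 (SE). Gch1, the first enzyme of tetrahydrobiopterin synthesis, differed by -3.06 ± 0.53 (SE), and Slc7a7, a light chain that exports basic amino acids, by -2.61 ± 0.28 (SE). The adjusted p of these 6 genes (limma) lay between 2.01e-12 and 4.26e-05.

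Whether the Ass1 difference between J365 and M0 extended along chromosome 2 was examined in its 20 nearest protein-coding neighbours, 10 on each side in the RefSeq order. Of these, 19 were measured and 12 could be tested, and none was called (0 of 12, limma), beside 1.47% of all genes. At an unadjusted p under 0.05 the count was 2, Usp20 (0.46 ± 0.14, adjusted p = 0.18) and Fnbp1 (0.46 ± 0.12, adjusted p = 0.0698), which are named because of these values. Over their detected probes the difference ran from 0.46 to 0.65 for Usp20 and from 0.00 to 0.46 for Fnbp1. The differences of the 12 genes ran from -0.18 to 0.46 with a median of 0.16, and 8 of 12 were above 0, beside a median of 0.02 and 10827 of 20660 above 0 over all genes. Before Ass1, the tested genes from Prrx2 to Gpr107 gave -0.15, 0.27, 0.29, 0.18, 0.46, 0.46 and 0.15 in gene order. After Ass1, those from Fubp3 to Fam78a gave 0.14, -0.15, -0.18, 0.19 and -0.11. The J365 and M0 arrays did not overlap for Usp20 and Fnbp1 alone among the 12, beside 8.49% of all genes. A difference between the sides was not tested. The nearest gene with a readable signal, Fubp3, was 3.34 ± 0.16 (SD, n = 3) in J365 and 3.20 ± 0.16 (SD, n = 4) in M0. Its 2 detected probes differed by -0.18 and 0.14. Ncs1 on the other side and Prdm12 were not well above background on any array of J365 or M0, and Hmcn2, which lies next to Ass1, was not measured.

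**Figure D4:**
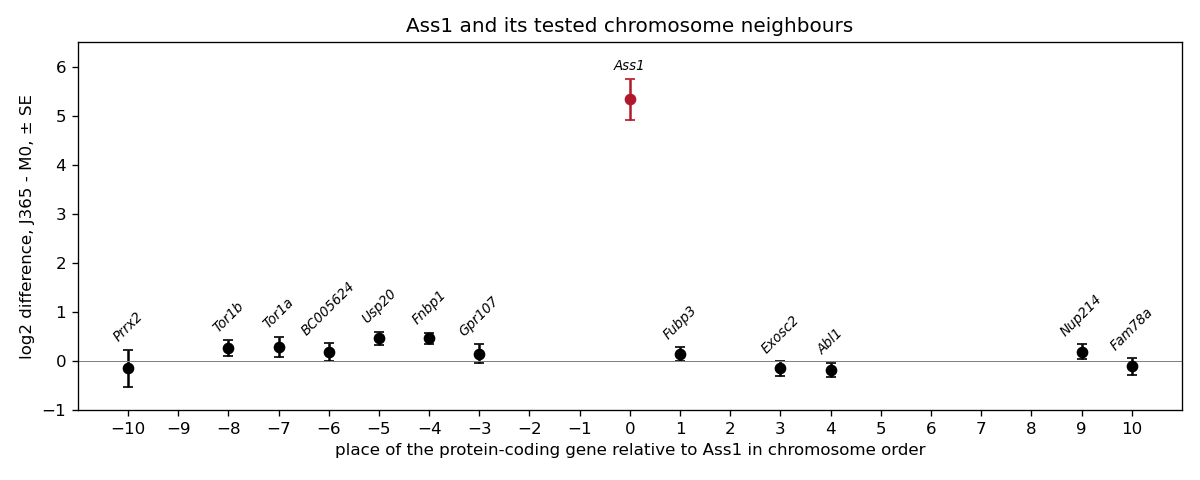
Log2 difference between J365 and M0 (vertical axis, ± 1 SE from limma) for Ass1 and the 12 tested genes among its 20 neighbours, placed by their rank in the gene order of chromosome 2 (horizontal axis). Ass1 stands at 5.34, and the neighbours lie between -0.18 and 0.46.

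The genes whose levels ran most like those of Ass1 were ranked by the Pearson correlation of the normalized log2 signal over the 24 arrays, among 12281 genes well above background on every J365 array. The arrays share lines and slides, so these values are descriptions. Genes dim in M0 could enter this ranking, while genes dim in J365 could not. The filter therefore favours the contrast on which Ass1 was chosen, and nothing is read from the ranks. Cth, which makes cysteine from cystathionine, came first with r = 0.968. Ass1 was chosen on the M0 arrays, and these arrays lie apart from the others in the correlation. Over the 20 arrays without M0, an alternative added after the data were seen, r was lower for each of the 5 genes named here, at 0.53 for Cth, 0.172 for Jcad, 0.293 for Tiam1, 0.398 for Ebag9 and 0.678 for Tmlhe. Cth was not well above background on any M0 array and averaged -0.63 ± 0.53 (SD, n = 3) in J365, at least 11-fold above M0, and 0.44 ± 0.50 (SD, n = 3) in M. Jcad, a protein of endothelial cell junctions, followed with r = 0.912, also not well above background in M0, with J365 at -2.16 ± 0.26 (SD, n = 3), at least 3.8-fold above M0. Tiam1, an exchange factor for Rac, had r = 0.898, Ebag9 0.888 and Tmlhe, an enzyme of carnitine synthesis, 0.869. These 3 were read in M0, at 0.36, 0.37 and -2.35, and stood at 1.04, 0.89 and -1.62 in J365, so their range was much narrower than that of Ass1. These levels are those of the brightest probe. Between J365 and M0 the 2 probes of Tiam1 differed by 0.35 and 0.68, and the 2 probes of Ebag9 by 0.01 and 0.52.

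**Figure D5:**
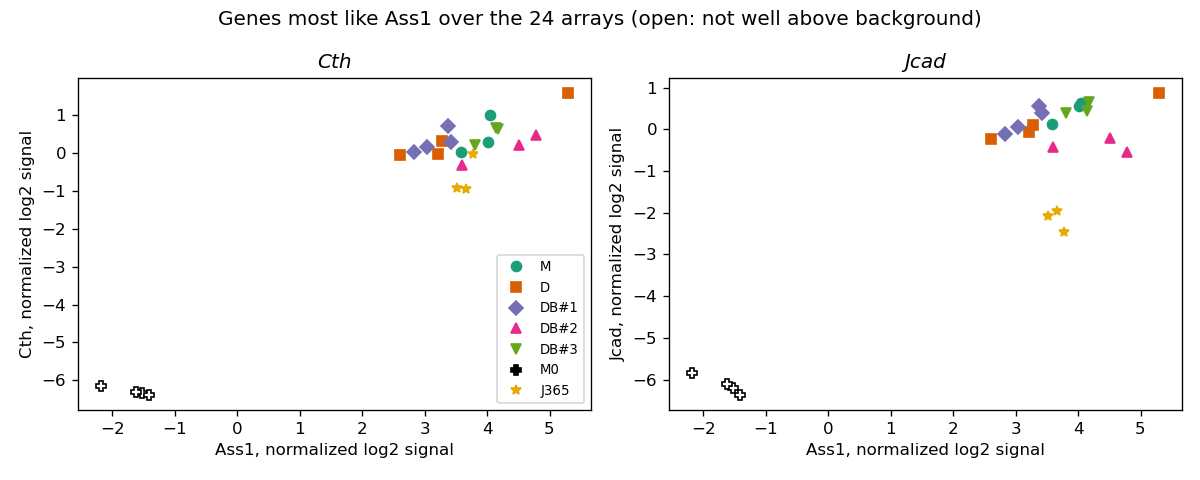
Normalized log2 signal of Cth and of Jcad (vertical axes) against that of Ass1 (horizontal axis) on the 24 arrays, with 1 point per array and a symbol per line; open points are not well above background. The 4 M0 arrays lie apart at the lower left, and the 3 J365 arrays lie lower for Jcad (mean -2.16) than the melanoma arrays, whose line means run from -0.39 to 0.50.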

How the data were processed

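Single-colour (Cy3) Agilent whole-mouse arrays of 24 samples from 7 lines, 3 or 4 arrays each on 3 slides, were used. The authors deposited one scanner table per array, made with Agilent Feature Extraction 10.7.3.1 per the labels, with a background-corrected linear intensity (gProcessedSignal) for each of 62976 spots. A deposited series table held the same intensity in all 1511424 of its values. Scaling by the authors is not given in the sources used here beyond the naming of GeneSpring. Control spots and outlier spots were left out (117 of 56605 probes were lost), no spot was saturated, and no pair of arrays was identical (0 pairs). The log2 of the deposited intensity less the 75th percentile of its array was used, with the brightest probe per gene. The number of arrays limits the precision.

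Probes were named through RefSeq accessions. The array design refers to mm9, and the GRCm38.p6 gene table served for names and gene order, and its promoter table for the sequence shown. The genome holds a processed copy of Ass1, Gm5424, for which no probe was named, and whether the Ass1 probe also reads it was not tested.

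Lines were compared with limma 3.58.1 in R 4.3.3 (lmFit and eBayes, 1 term per line, 17 residual degrees of freedom). A gene entered a comparison if either line had it well above background on all its arrays, and was called at a Benjamini-Hochberg adjusted p under 0.05 over all genes tested. The script was tested on simulated data. The members, gene lists and tests were chosen with earlier results of these data known. Named were the members, up to 3 called pathway genes in each direction per comparison read on every array of both lines, the 2 neighbours on each side of Ass1, and the 5 genes most like Ass1. Amd1 and Pycr1 found no match and were not analysed here. A bound (at least N-fold) sets the mean of the bright line against a raised mean of the dim one, in which each array counts at its lowest signal above background or at the probe's own signal if brighter.

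Alternatives were quantile normalization, no scaling, the percentile over probes detected on all arrays, normexp (offset 50, on the median spot signal, the mean not being used here), no filter, the mean over probes, slide as a block and within slides, the replicate number as a block, the arrays of 2 lines alone, and leaving out each array. M0 and J365 each hold 1 array without a number in its label, called replicate 4 here and paired with none.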

Additional observations from a re-analysis of the deposited data

Results flagged for a closer look

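In 5 cases 1 array of a line with 4 arrays lay far from the other 3, judged by the gap to its nearest neighbour as a share of the whole range. The scan covered each of the 9 genes in D, DB#1 and M0, the lines with 4 arrays. Chance alone gives this in about 1 in 20 independent groups. These groups share arrays and slides, and the count of 5 was not tested against that share. Nos2 in DB#1 was -1.89 on replicate 3, the array on slide 1, against -0.03, -0.03 and -0.02 on the others, with a gap of 0.993 of the range. Asl in M0 was 2.28 on replicate 1, against 1.61 to 1.71 (gap 0.846), and that array is also the slide 1 array of M0. Slc7a1 in M0 was 5.31 on replicate 4, against 4.72 to 4.78 (gap 0.887). The last pair concerned genes at the edge of detection in M0. Slc7a2 was -2.60 and well above background on replicate 2, against -6.33 to -5.88 on the others (gap 0.878), and Arg2 was -5.04 on replicate 3, not above background, against -6.24 to -6.09 (gap 0.875). The causes were not tested.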

How the results depend on the processing

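The number of members called in D, DB#1, DB#2 and DB#3 against M was 0 under every alternative run. In M against M0 it was 2 or 3 when 1 array was left out and 4 with slide as a block. The Ass1 difference between J365 and M0 kept its direction throughout, at 4.65 with normexp, 5.84 within slide 1 and 5.18 to 5.43 with 1 array left out. For its chromosome neighbours the count of 0 became 1 without scaling, with normexp and with slide as a block, and 0 to 2 with 1 array left out (1 without D replicate 2 and 2 without D replicate 3).

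The counts of other pathway genes called moved with the setting, as did the calls over all genes, which in D against M went from 596 to 797, 850 and 1083 of 20145 with quantile normalization, the percentile over detected probes and slide as a block, and in J365 against M0 from 303 to 539, 430 and 499 of 20660. In D against M the 3 calls became 5 with quantile normalization, 6 with the percentile over probes detected on all arrays, 5 with slide as a block and 0 with the arrays of the lines compared alone, and 3 to 5 with 1 array left out (5 without D replicate 1 or 3). In DB#1 the 1 call became 2 with quantile normalization, normexp, the replicate block or the lines compared alone, 3 with the percentile over detected probes or slide as a block, and 1 to 2 with 1 array left out (2 without D replicate 1 or 4 or M0 replicate 4). In DB#2 the 5 calls became 9 with the percentile over detected probes, 8 with slide as a block, 3 with no filter, and 2 to 7 with 1 array left out (2 without M replicate 2, 3 without DB#2 replicate 2). In DB#3 the 1 call became 2 with quantile normalization, the percentile over detected probes, normexp, the mean over probes or the lines compared alone, and 1 to 2 with 1 array left out (2 without M0 replicate 4). In J365 against M0 the 2 calls became 5 with quantile normalization, 4 with the percentile over detected probes or normexp, 1 with no filter, 0 with the replicate block or the lines compared alone, and 0 to 3 with 1 array left out (0 without J365 replicate 4). The causes were not tested.

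Some small, uncalled differences from M changed sign. In D, Asl was -0.04 with normexp and with slide as a block (-0.14 to 0.28 with 1 array left out), Slc7a1 0.12 without scaling (-0.12 to 0.02), Ass1 -0.86 to 0.04 and Nos2 -0.79 to 0.10 with 1 array left out. In DB#1, Asl was -0.02 with normexp (-0.03 to 0.14), Oat -0.02 with quantile normalization, Slc7a1 -0.08 with quantile normalization and 0.00 with the percentile over detected probes (-0.04 to 0.11), and Nos2 -0.17 to 0.80. In DB#2, Nos2 was 0.08 without scaling (-0.67 to 0.51), and Slc7a1 -0.10 with quantile normalization and -0.05 with the percentile over detected probes (-0.09 to 0.07). In DB#3, Oat was -0.09 and -0.02 in the same settings (-0.05 to 0.09), Slc7a1 0.04 with normexp and 0.14 with the replicate block (-0.11 to 0.05), Asl -0.01 to 0.27 and Nos2 -0.40 to 0.83.

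The replicate numbers did not pair the arrays, since deviations from the line means correlated at 0.08 on average over 49 pairs of arrays with the same number, with a lowest value of -0.80. They correlated at 0.49 over 81 pairs on the same slide and at -0.22 over 165 pairs on different slides. The main fit holds no term for slide, so differences between slides stay in its spread. With the replicate block no member changed its call, Mtap (0.68, adjusted p = 0.0504, limma) and Padi2 (0.44, adjusted p = 0.302) in J365 against M0 lost theirs, and J365 against M0 had 203 genes called in place of 303. With no filter Padi2 was not called in DB#2 (adjusted p = 0.0608) or J365 (adjusted p = 0.162). Without scaling the median of all genes moved to 0.17 in D, 0.25 in DB#2 and 0.17 in J365 against M0. Weak signals limit Arg1, Arg2 and Slc7a2, for which the arrays give no comparison.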
